A study of Mus musculus with 4 samples.

Results

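The miR-99/100, miR-125 and miR-10 families were followed in the liver of WT and *Clock* mutant mice. Their members were taken by name from the arrays: mmu-miR-99a, mmu-miR-99b, mmu-miR-100, mmu-miR-125a-5p, mmu-miR-125a-3p, mmu-miR-125b-5p, mmu-miR-10a and mmu-miR-10b, 8 of the 611 mouse miRNAs measured. The species prefix mmu is left out below. The names were listed with mutant to WT results of these arrays already known, so the genotype values are a description and carry no test. In the *Clock* mutant, miR-100, miR-99a, miR-125b-5p and miR-10a had higher scaled signals than in WT at both time points, and miR-125a-5p had lower ones. miR-100 had the highest ratio of the members measured on both arrays, 1.53-fold at ZT2 and 1.42-fold at ZT14. At ZT14 these directions depended on the processing: miR-125a-5p turned in 6 of 12 alternatives, some of which shift all miRNAs alike, and miR-100 turned in 2 of 12. At ZT2 miR-125a-5p and miR-10a each turned in 1 of 12. In some others the ratio of miR-125a-5p was smaller than the spread of its repeat spots.

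The mice carried the *Clock* mutation ClockΔ19 or were WT. All were males of 6 to 8 weeks, caged singly with 12 h of light a day for 2 weeks, and the livers were taken at ZT2 or ZT14, that is 2 h or 14 h after lights on. Each of the 4 conditions was 1 array, hybridized with liver RNA mixed from 3 mice, so no condition had a replicate. The mutation is in the germ line, so it is not limited to the liver. Whether mutants were homozygous, and their strain background, is not given in the sources used here.

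A miRNA is cut from a hairpin precursor, and bases 2 to 8 of the mature strand, the seed, do most of the pairing with target mRNAs. miRNAs that share a seed form a family. The miR-99/100 and miR-125 families lie in paralogous gene clusters, each with a let-7 gene between them, and the miR-10 genes lie inside the Hox clusters. The miR-99/100 family is known for repressing *Mtor* and *Igf1r*, miR-125 for roles in blood cell formation, and miR-10 for its ties to the Hox genes beside it. CLOCK itself is a transcription factor that, with BMAL1, drives the daily rhythm of many liver genes.

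The mature sequences of all 8 members were found in RefSeq (GRCm38.p6), where array names without an arm were matched to the 5p strand. They are shown because they define which members are seed relatives and how few bases set them apart. They run 5′ to 3′, and the capitals mark the seed. First come the members with the seed ACCCGUA.
miR-100: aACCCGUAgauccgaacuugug
miR-99a: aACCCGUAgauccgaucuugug
miR-99b: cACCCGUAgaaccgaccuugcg
The next have the seed CCCUGAG.
miR-125b-5p: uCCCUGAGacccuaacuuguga
miR-125a-5p: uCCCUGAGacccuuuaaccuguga
The miR-10 pair has the seed ACCCUGU.
miR-10a: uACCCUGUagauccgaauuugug
miR-10b: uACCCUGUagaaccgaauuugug
The other strand of the miR-125a precursor has a seed of its own, CAGGUGA.
miR-125a-3p: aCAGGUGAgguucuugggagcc

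Counted from the 5′ end, miR-99a differed from miR-100 at 1 of 22 bases (A16U), and miR-99b differed from miR-100 at 4 (A1C, U11A, A16C and U21C). miR-10b differed from miR-10a at 1 of 23 bases (U12A). Whether a probe for 1 of these miRNAs also reads its near-identical relative was not tested, since the probe sequences were not used here. miR-351 is the other mouse miRNA of the array with a member's seed (CCCUGAG), among the 374 of 611 array names that matched a sequence, and it was detected on 0 arrays.

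On GRCm38.p6 the mature miR-100 strand lies at chr9:41531437-41531458 and that of miR-125b-5p at chr9:41581940-41581961, both within the lncRNA host gene *Mir100hg*, with *Mirlet7a-2* between them. A second gene for miR-125b-5p lies at chr16:77646279-77646300, with miR-99a at chr16:77598940-77598961 and *Mirlet7c-1* between them. The cluster on chromosome 17 is compact, with miR-99b at chr17:17830194-17830215, *Mirlet7e*, and miR-125a-5p at chr17:17830817-17830840, and the genes of both members overlap *Spaca6*. miR-10a lies in *Hoxb3* at chr11:96317186-96317208 and miR-10b in *Hoxd3* and *Hoxd4* at chr2:74726074-74726096, and all of these are on the plus strand. The array reads mature strands, so the signal of miR-125b-5p cannot be divided between chromosomes 9 and 16.

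Values are intensities averaged over the spots of a probe and over the probes of a miRNA, then divided by the array's 75th percentile over those 123 mouse miRNAs that were detected on every array. A scaled signal of 1 is thus the brightness of a miRNA at that percentile. Before scaling the percentile was 537 units (WT) and 503 (mutant) at ZT2, and 339.9 (WT) and 536 (mutant) at ZT14. By this percentile the dimmest array was thus WT at ZT14. Its spike-in controls were the brightest, with a geometric mean of 6738 units against 6002 to 6354 on the other arrays. The spread given is the spot SD, the SD among repeat spots of a probe, taken over both arrays of a ratio. It is the spread of single spots, so it is larger than the error of a mean over them. It covers the array measurement and leaves out how mice differ. Negative control spots averaged 5.65 to 9.53 units, and each member had 20 spots on an array, none of them saturated.

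Of the 8 members, 8 (WT) and 7 (mutant) were detected at ZT2, and 5 (WT) and 7 (mutant) at ZT14. Of all 611 mouse miRNAs, 193 (WT) and 161 (mutant) were detected at ZT2, and 138 (WT) and 142 (mutant) at ZT14. Over the whole array the count thus also fell from ZT2 to ZT14 in WT, and in the mutant it fell to nearly the same number. The 5 detected on all 4 arrays were miR-100, miR-99a, miR-125b-5p, miR-125a-5p and miR-10a. These were also the 5 with 10 or more of their 20 spots well above background on each array. miR-99b and miR-10b were detected on 3 arrays and miR-125a-3p on 1.

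**Figure D1:**
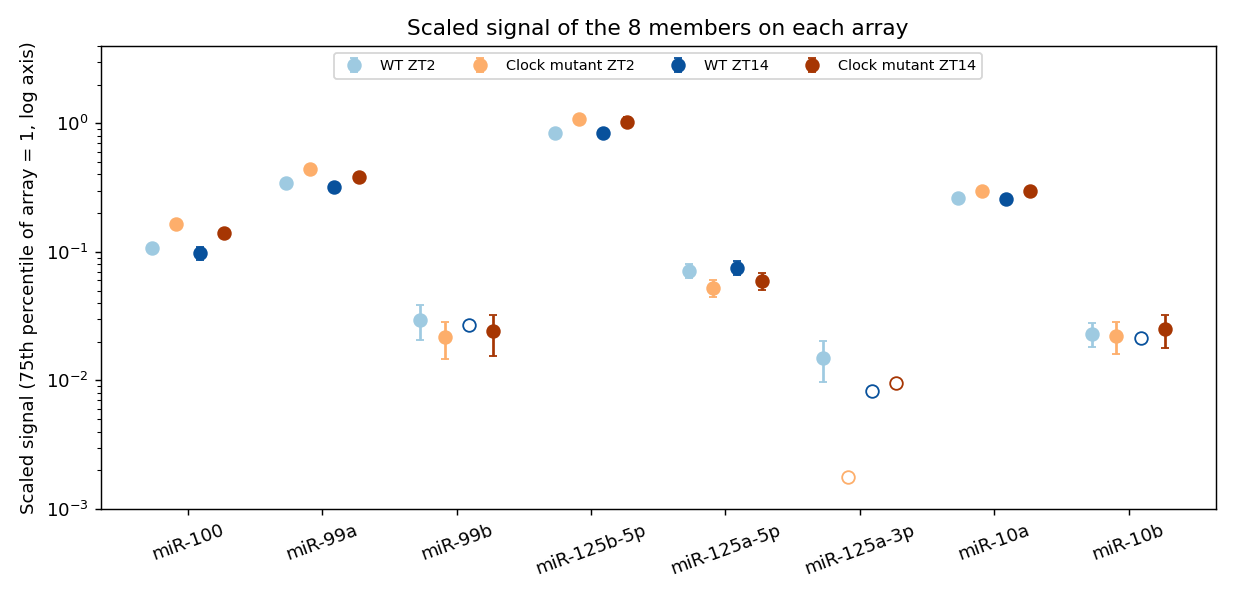
Scaled signal of each member (75th percentile of the array set to 1, log axis) on the 4 arrays, with the spot SD as bars; open circles mark members not detected on that array. miR-100, miR-99a, miR-125b-5p and miR-10a sit higher in both *Clock* mutant arrays than in both WT arrays, and levels are to be read within a miRNA, not between miRNAs.

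miR-100 had a signal of 57.8 units (WT) and 83.0 (mutant) at ZT2, and of 33.3 (WT) and 74.4 (mutant) at ZT14. Scaled, these were 0.108 and 0.165 at ZT2, and 0.0979 and 0.139 at ZT14. Both mutant arrays were above both WT arrays. In order, the mutant at ZT2 was above the mutant at ZT14 by 0.25 (spot SD 0.12) on the log2 scale, and that in turn was above WT at ZT2 by 0.37 (spot SD 0.13). WT at ZT2 and WT at ZT14 differed by 0.14, within the spot SD of 0.20. The mutant to WT log2 ratio was 0.61 (spot SD 0.15) at ZT2, against 0.50 (spot SD 0.18) at ZT14. Ranked from the highest ratio, miR-100 was at position 3 of the 160 miRNAs detected on both arrays at ZT2 and at position 5 of 123 at ZT14.

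miR-99a, the seed relative that differs by 1 base, had scaled signals of 0.345 (WT) and 0.443 (mutant) at ZT2, and of 0.317 and 0.381 at ZT14. The mutant arrays were again the upper pair, with log2 ratios of 0.36 (spot SD 0.072) and 0.26 (spot SD 0.11). miR-99b, the relative from chromosome 17, was dim, with signals of 15.9 units (WT) and 10.9 (mutant) at ZT2. Its log2 ratio at ZT2 was -0.45, smaller than its spot SD of 0.64. At ZT14 it was detected in the mutant, at 12.9 units, and not in WT, and no bound past 1 could be set in either direction.

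miR-125b-5p, the clustered partner of miR-100 and miR-99a, had scaled signals of 0.845 (WT) and 1.07 (mutant) at ZT2, and of 0.846 and 1.03 at ZT14. Its log2 ratios were 0.34 (spot SD 0.11) and 0.29 (spot SD 0.12), and the signals of both WT arrays were nearly equal. miR-125a-5p, which shares its seed, went the other way: 0.0714 (WT) and 0.0523 (mutant) at ZT2, and 0.0755 and 0.0597 at ZT14. Its log2 ratios were -0.45 (spot SD 0.28) and -0.34 (spot SD 0.29). Neighbouring arrays in its order of levels all differed by less than their spot SD. The direction at ZT14 rests on scaling: without scaling the log2 ratio was 0.32, on an axis where the median of all 123 miRNAs moved from -0.031 to 0.63.

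miR-125a-3p, the other strand of the same precursor, was detected in WT at ZT2, at 8.01 units, and on no other array. Set against the lowest detected signal of the mutant array at ZT2, 2.42 units, its mutant level was at least 3.11-fold lower. With the negative controls' mean as floor, a choice made once the data had been seen, the bound was 1.33-fold. The detected signal of 8.01 units was close to the 6.60 units of the negative controls on its own array.

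miR-10a had scaled signals of 0.264 (WT) and 0.298 (mutant) at ZT2, and of 0.256 and 0.295 at ZT14. The log2 ratios of 0.18 (spot SD 0.087) and 0.20 (spot SD 0.11) were the smallest of the 4 positive ones. miR-10b, which differs from it by 1 base, had 12.4 units (WT) and 11.2 (mutant) at ZT2, a log2 ratio of -0.052 with a spot SD of 0.51. At ZT14 it was detected in the mutant and not in WT, at least 1.17-fold higher against its own signal there, a bound that was lost with the negative controls as the floor.

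Among the 7 members detected on both arrays at ZT2, 4 were higher in the mutant by more than their spot SD and 1 was lower, against 21.9% and 30.6% of the 160 miRNAs measured there. At ZT14 the same 4 of 5 were higher and the same 1 was lower, against 26% and 35.8% of 123. At both time points together 4 of 5 were higher by more than the spot SD, against 14.6% of 123. Since the members were chosen with this contrast known, nothing is read from these shares. The median log2 ratio was 0.18 over the members and -0.065 over all miRNAs at ZT2, and 0.26 and -0.031 at ZT14. As scaled here, no member measured on both arrays reached 2-fold in either direction, and of all miRNAs measured on both arrays 0% were 2-fold higher at either time point, while 2.5% at ZT2 and 6.5% at ZT14 were 2-fold lower. In the authors' table miR-100, miR-99a and miR-125b-5p were over 2-fold higher at ZT2 and miR-100 at ZT14, with 26 of all 160 and 14 of all 123 miRNAs past that fold. The median log2 ratio of all miRNAs in that table was 0.74 at ZT2 and 0.64 at ZT14. Without scaling, the median was -0.16 at ZT2 and 0.63 at ZT14, so that table holds a shift between the arrays at ZT2. Its 2-fold counts at ZT2 and ZT14 are thus not on the same footing. At ZT14 miR-100 also passed 2-fold without scaling and with the 75th percentile over every mouse miRNA, and 4 members did with spike-in scaling, where 22 of all 123 miRNAs passed. At 1.5-fold, miR-100 at ZT2 was the member called, against 1.88% of 160, and at ZT14 0 of 5 were, against 2.44% of 123.

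**Figure D2:**
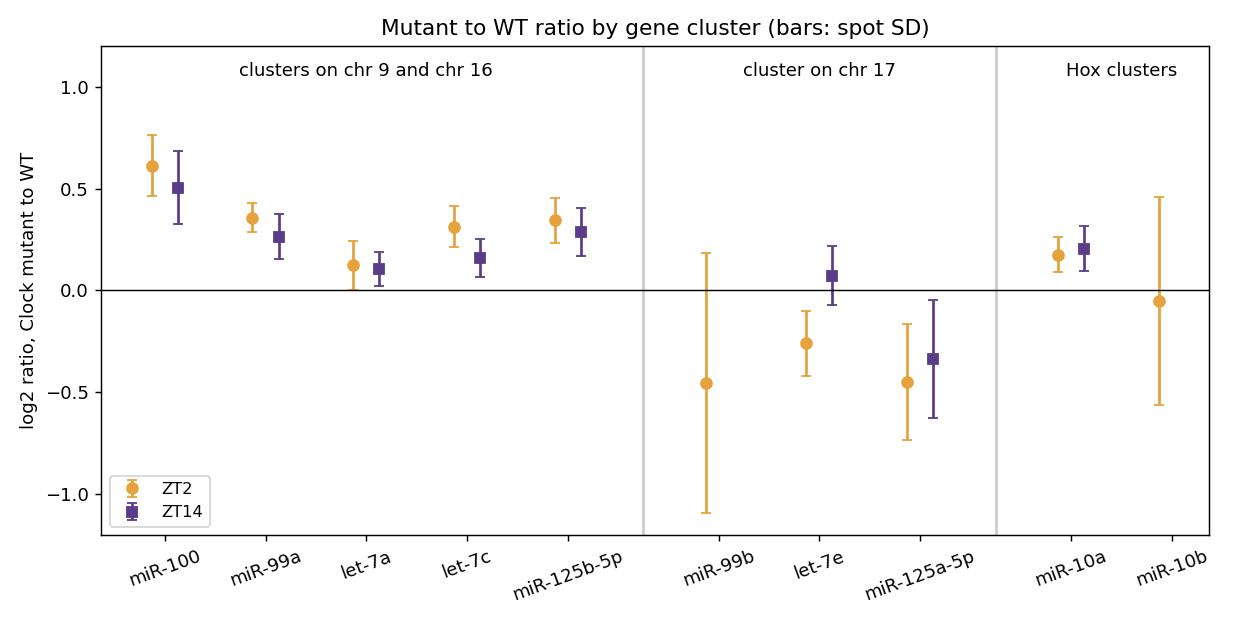
Log2 ratio of *Clock* mutant to WT for the members and their let-7 neighbours, grouped by gene cluster, at ZT2 (circles) and ZT14 (squares), with the spot SD as bars. As scaled here, every ratio of the miRNAs with a gene in the clusters of chromosomes 9 and 16 lies above 0, while the miRNAs of the chromosome 17 cluster lie between -0.45 and 0.073; miR-99b and miR-10b have a ratio at ZT2 only.

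Set against miR-100, the other members with a ratio, 6 at ZT2 and 4 at ZT14, had a lower mutant to WT ratio. As miR-100 was chosen for its ratio, this order is a description and nothing is read from it. The difference from miR-100 is taken within arrays, so any factor per array drops out of it. At ZT2 the ratio of miR-100 exceeded that of miR-99a by 0.26 (spot SD 0.16) and that of miR-125b-5p by 0.27 (spot SD 0.18). It exceeded that of miR-10a by 0.44 (spot SD 0.17) and that of miR-125a-5p by 1.06 (spot SD 0.32). At ZT14 the same differences were 0.24 (spot SD 0.21), 0.22 (spot SD 0.21), 0.30 (spot SD 0.21) and 0.84 (spot SD 0.34). Against the dim miR-99b and miR-10b the differences at ZT2 were 1.07 (spot SD 0.66) and 0.66 (spot SD 0.53). Over the 4 relatives detected on all arrays, miR-100 was above their median by 0.35 at ZT2 and 0.27 at ZT14. At ZT14 the differences from miR-99a and miR-125b-5p were barely larger than the spot SD, and with normexp background correction the difference from the median was -0.068.

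The let-7 genes of the 3 clusters give a further reading of each, although let-7a and let-7c also have genes on chromosomes 13 and 15. The let-7 miRNAs are known for repressing growth genes such as *Hmga2* and *Lin28*. Their mature strands, again from RefSeq with the seed in capitals, are shown because their probes face the same near-identity.
let-7a: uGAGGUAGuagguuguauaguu
let-7c: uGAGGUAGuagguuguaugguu
let-7e: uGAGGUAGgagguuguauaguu
let-7c differed from let-7a at 1 base (A19G), and let-7e differed from let-7a at 1 (U9G). let-7c, from the miR-99a cluster, had genotype log2 ratios of 0.31 (spot SD 0.10) at ZT2 and, at ZT14, 0.16 (spot SD 0.093). let-7a had 0.12 (spot SD 0.12) and 0.10 (spot SD 0.083). let-7e, from the chromosome 17 cluster, had -0.26 (spot SD 0.16) at ZT2, and 0.073 (spot SD 0.15) later, at ZT14.

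At ZT2 the ratios of miR-125a-5p, miR-99b and let-7e, all from chromosome 17, were below those of their paralogs, a comparison in which scaling by a factor per array cancels. The ratio of miR-125a-5p was below that of miR-125b-5p by a log2 difference of -0.79 (spot SD 0.31), that of miR-99b below that of miR-99a by -0.81 (spot SD 0.64), and that of let-7e below that of let-7c by -0.57 (spot SD 0.19). At ZT14 the miR-125 difference was -0.62 (spot SD 0.31), while that between let-7e and let-7c was -0.085, within the spot SD of 0.17, and miR-99b had no ratio there. Other settings moved these differences. At ZT14 that between let-7e and let-7c was past the spot SD with quantile normalization (-0.24) and normexp (-0.29), and within it in the other settings. At ZT14 that of the miR-125 pair was -0.056 with quantile normalization and -0.20 with the sum over detected probes, both within the spot SD, and at ZT2 it turned to 3.03 with the scanner's summed signal. At ZT2 that of miR-99b was within the spot SD with quantile normalization (-0.48) and with normexp (-0.30). It was also within it with the scanner's summed signal (-0.031) and with the brighter probe alone (-0.62). The same held with the sum over detected probes and in the authors' table (both -0.63). The comparison by cluster was drawn up after the values were seen and has no test.

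Of 7 names of the opposite strands of the other precursors, 5 were on the array, miR-99b\*, miR-125b\*, miR-125b-3p, miR-10a\* and miR-10b\*, and 0 of the 5 were detected on any array. Their mean signals ranged from below 0 to 0.511 units.

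The probes of a member gave a check on its ratio. miR-100 had 2 probes of 10 spots each. On the brighter one, with means of 93.8 units (WT) and 135 (mutant) at ZT2, the log2 ratio was 0.62 (spot SD 0.12) at ZT2, against 0.42 (spot SD 0.13) at ZT14, and the scaled spots of mutant and WT did not overlap at either time point. On the dimmer one, with 21.9 and 30.8 units at ZT2, the log2 ratio was 0.58 (spot SD 0.24), and it was 0.91 (spot SD 0.39) at ZT14, where the WT spots ran from 5.80 to 13.5 units, around the 9.53 units of the negative controls. For miR-125a-5p both probes were lower in the mutant, by -0.34 (spot SD 0.23) and -0.74 (spot SD 0.43) at ZT2, and by -0.37 (spot SD 0.23) and -0.25 (spot SD 0.44) at ZT14, with overlapping spots throughout.

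**Figure D3:**
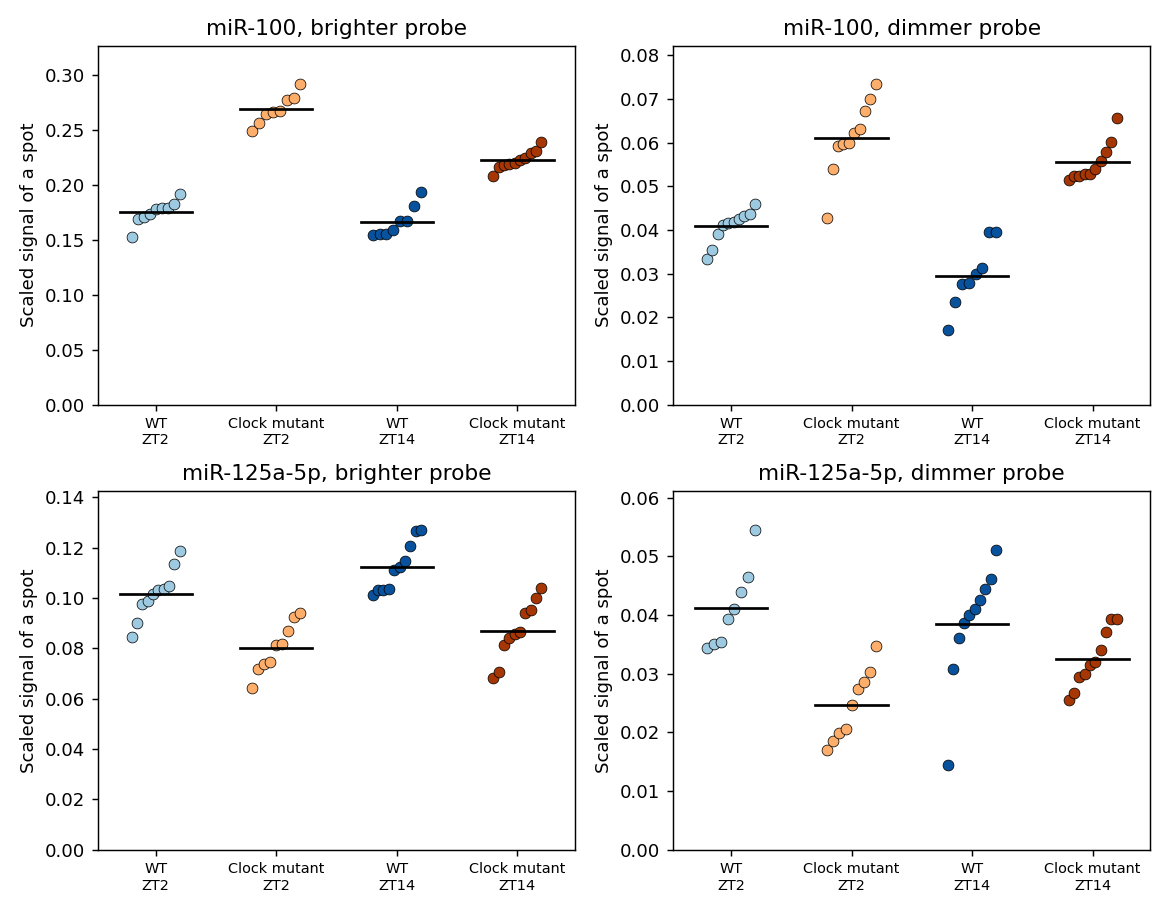
Scaled signal of each spot (linear axis from 0, outlier spots left out) on the brighter and the dimmer probe of miR-100 and miR-125a-5p, by array, with the mean as a line. The spots of miR-100 on its brighter probe are apart between mutant and WT at both time points, while those of miR-125a-5p overlap on both probes.

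The dimmer probe of miR-100 was called detected in 3 conditions and not in WT at ZT14. The authors' log2 table sums detected probes, so its miR-100 value rests at ZT14 on 1 probe for WT and 2 for the mutant. Summing detected probes in this way gave a scaled log2 ratio of 0.74 at ZT14 against 0.50 for the mean of both probes. The scanner's own summed signal is a further step away. In WT at ZT14 it gave miR-100 443 units, of which the detected probe accounts for 39.8 and the rest, 403 units, equals the summed signal of let-7i. Likewise the sum of miR-99b held that of miR-99a, the sum of miR-10b held that of miR-10a, and the sum of miR-125a-5p held that of miR-1224 on 2 arrays. Each such case was a member with an undetected probe, so the scanner's sums were not used for the main values.

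Between ZT2 and ZT14 the log2 ratios of the members detected on both arrays lay between -0.25 and 0.19. In WT the log2 ratio of ZT14 to ZT2 was -0.14 (spot SD 0.20) for miR-100, -0.12 (spot SD 0.11) for miR-99a and 0.0026 (spot SD 0.087) for miR-125b-5p. In the mutant these were -0.25 (spot SD 0.12), -0.22 (spot SD 0.078) and -0.055 (spot SD 0.14). miR-10a was at -0.045 and -0.016, and miR-125a-5p at 0.080 and 0.19, all within their spot SD. miR-99b and miR-10b, measured in the mutant, were at 0.15 (spot SD 0.68) and 0.17 (spot SD 0.58). All miRNAs had medians of -0.12 in WT and -0.16 in the mutant, so miR-99a and miR-100 were close to the median of the array pair. Time point, which the choice of members did not use, was tested over all 4 arrays with limma, genotype being in the model. This left 1 residual degree of freedom per miRNA and no replicate of a condition. Of the 5 members tested 0 passed, with adjusted p between 0.525 and 0.934, and 0% of the 123 miRNAs passed. At an unadjusted p under 0.05 there were 12 of the 123 (9.76%) and 0 of the 5 members. The estimate for miR-100 was -0.19 (SE 0.13).

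For the 5 members with a genotype ratio at both time points, as scaled here, the ratio at ZT14 minus that at ZT2 ran from -0.11 for miR-100 to 0.11 for miR-125a-5p, each less than its spot SD. For miR-100 the pair of ratios was 0.52 and 1.16 without scaling, and 0.34 and -0.021 with normexp. A difference between genotypes in the response to time could not be tested with 1 array per condition.

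Of the 122 other miRNAs detected on all 4 arrays, those whose centred log2 signals over the arrays lay nearest to miR-100 were miR-221, miR-34a, miR-99a, miR-125b-5p and miR-195, at distances from 0.14 to 0.31 over 4 arrays. miR-221 had log2 ratios of mutant to WT of 0.58 and 0.66, and miR-34a of 0.56 and 0.66. Thus 2 of the 5 nearest were members, where the 122 held 4 members. Since the members were listed with the genotype ratios known, nothing is read from this count. miR-10a followed at position 14, and miR-125a-5p was at position 104.

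**Figure D4:**
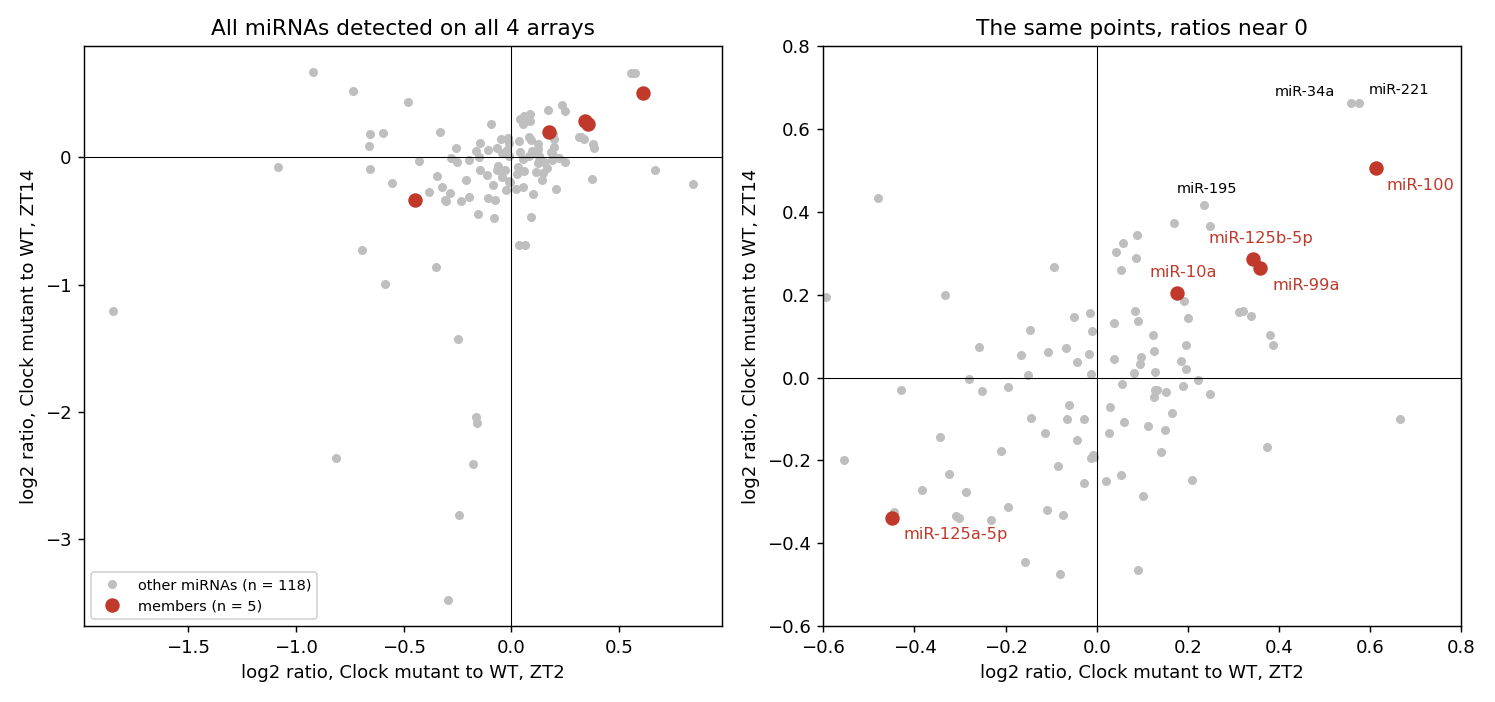
Log2 ratio of *Clock* mutant to WT at ZT2 (horizontal) and ZT14 (vertical) for the 123 miRNAs detected on all 4 arrays, in full on the left and near 0 on the right. miR-100 lies at 0.61 and 0.50 beside miR-221 and miR-34a, miR-99a and miR-125b-5p lie together, and miR-125a-5p lies below 0 on both axes.

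Markers of other cell types did not move as 1 group. Fewer cells of a type and less of a miRNA per cell cannot be told apart in whole liver. The hepatocyte miRNAs miR-122, miR-192 and miR-194 were detected on all arrays, with log2 ratios of 0.098 to 0.19 at ZT2 and -0.086 to 0.18 at ZT14. The endothelial pair was at 0.020 and 0.13 at ZT2, and at -0.25 and -0.031 at ZT14. Of the 5 mesenchymal miRNAs 4 were measured at ZT2, from -0.59 to 0.085, and 3 at ZT14, from 0.19 to 0.32, a range that holds the ratios of miR-99a, miR-125b-5p and miR-10a at that time point. The 2 leukocyte miRNAs measured were lower at ZT2, at -0.66 and -0.43, and at -0.030 and 0.19 at ZT14. The 2 red blood cell miRNAs were at 0.37 and 0.84 at ZT2 and below 0 at ZT14, and the 2 bile duct miRNAs at -0.92 and -0.73 at ZT2 and at 0.52 and 0.67 at ZT14. All 3 muscle miRNAs were detected in WT at ZT2 and on no other array. The part of these cell types in the members' ratios was not tested.

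The median of all miRNAs measured was taken as a second reference, against which a factor per array cancels. By the main values miR-100 was above that median by 0.68 at ZT2 and 0.54 at ZT14, and miR-125a-5p was below it, at -0.38 and -0.31. Settings that do more than rescale moved these values at ZT14: miR-100 was at 0.15 with normexp and -2.75 with the scanner's summed signal, and miR-125a-5p at 0.14 with quantile normalization and 0.12 with the sum over detected probes. At ZT2 miR-125a-5p was at -0.11 with quantile normalization, -0.12 with normexp and 3.32 with the scanner's summed signal, while miR-100 ran from 0.33 to 0.76.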

How the data were processed

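Pooled liver RNA from WT and *Clock* mutants, taken at ZT2 and ZT14, was read on 4 one-colour Agilent miRNA arrays of 1 slide. The authors deposited the scanner output, made with Agilent Feature Extraction 10.7.1.1 per the file headers, which holds a background-subtracted intensity for each spot, other columns with flags for outliers and detection, and summed signals. A second deposited table holds 1 log2 value for each miRNA and array.

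Intensities of spots without outlier flags were averaged within probes, then over probes, divided by the array's 75th percentile over those 123 mouse miRNAs that every array detected, and log2 transformed. The scanner output includes no step that makes arrays comparable. The arrays of the authors' log2 table are not on 1 scale. In it miR-99a had a genotype log2 ratio of 1.17 at ZT2, while its detected probes summed to 252 units (WT) and 299 (mutant). The table's median log2 ratio of ZT14 to ZT2 over all miRNAs was 6.76 in WT and 6.60 in the mutant. With the sums over detected probes put on 1 scale, limma called 0 of the 123 miRNAs for time. The limma calls for time in the authors' table thus cannot be read as changes with time. Detection was taken from Feature Extraction, which calls a probe whose signal exceeds 3 times its error. Where 1 array of a pair detected a miRNA, its ratio is a bound, taken against the higher of its own signal and the lowest detected signal on the other array. A bound or ratio has no replicate behind it, and the number of arrays limits the precision. Time point was tested with limma 3.58.1 in R 4.3.3, additive with genotype, with Benjamini-Hochberg adjustment over the 123 miRNAs, and the fit was tested on simulated data. With no replicate, the 1 residual degree of freedom per miRNA is the difference between the genotypes in their change over time. limma then draws the variance of each miRNA toward a value shared by all 123. The SEs of the 5 members were thus nearly equal, from 0.123 for miR-10a to 0.126 for miR-125a-5p. The p-values rest on such differences, largely as pooled over the miRNAs, and do not measure how pools of the same condition differ. Other steps used Python 3.11.15, numpy 2.4.6, pandas 2.3.3, with figures by matplotlib 3.10.9.

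The members and lists were chosen with earlier results of these data known. The miRNAs named are the members, the other strands of their precursors, their let-7 neighbours, miRNAs with a member's seed, and the 5 nearest to miR-100 by Euclidean distance. Marker miRNAs of 7 cell types were summarised. Sequences and gene positions are those of RefSeq on GRCm38.p6, and the files name no build.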

Additional observations from a re-analysis of the deposited data

Results flagged for a closer look

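With 1 array per condition, a result was marked where a difference had opposite signs in both genotypes or at both time points, and none of these differences was tested. The genotype log2 ratio of let-7e was -0.26 at ZT2 and 0.073 at ZT14, and only the first exceeded its spot SD of 0.16. Its change from ZT2 to ZT14, as a log2 ratio, was -0.28 (WT) and 0.048 (mutant). That of let-7c was 0.013 in WT and -0.14 in the mutant. That of miR-125b-5p was 0.0026 in WT and -0.055 in the mutant, both within the spot SD.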

How the results depend on the processing

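Of the 12 alternatives for the genotype ratios, one, the brighter probe of each miRNA alone, was chosen after seeing the data. miR-100 stayed above 0 at ZT2 in all 12, with log2 ratios from 0.34 to 1.42: 0.92 when the percentile was taken over every mouse miRNA, 0.81 after quantile normalization, 0.34 with normexp, 0.39 with the scanner's summed signal and 1.42 in the authors' log2 table. At ZT14 the same settings gave 1.02, 0.75, -0.021, -2.79 and 1.41, while no scaling gave 1.16, spike-in scaling 1.33 and the sum over detected probes 0.74. The normexp offset of 50 units exceeds the 33.3 units of miR-100 in WT at ZT14. miR-100 minus the median of its 4 relatives was 0.13 at ZT2 with normexp. At ZT14 it was -0.068 with normexp, -2.97 with the summed signal, 0.53 with quantile normalization and 0.51 both with the sum over detected probes and in the authors' table. The count of 4 members higher at both time points became 1 with normexp, 2 with the summed signal, and 3 without scaling or with the brighter probe alone. With detection called from 10 or more of the 20 spots being well above background, the members detected in WT at ZT2 fell from 8 to 5.

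The summed signal also turned miR-125a-5p to 3.15 and miR-10a to -0.049 at ZT2. Elsewhere miR-125a-5p stayed below 0 at ZT2, but in some settings by less than its spot SD of 0.28. It was -0.14 with the 75th percentile over all miRNAs, -0.062 with quantile normalization, -0.11 with normexp and -0.027 in the authors' table. At ZT14 miR-125a-5p was 0.32 without scaling, 0.17 with the 75th percentile over all miRNAs, 0.19 with quantile normalization, 0.48 with spike-in scaling, 0.087 with the sum over detected probes and 0.76 in the authors' table. Scaling moved the median genotype ratio of all miRNAs at ZT14 from -0.031 to 0.63 without scaling and 0.79 with spike-ins.

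For time, miR-99a in WT became 0.17 with the 75th percentile over all miRNAs, 0.099 with the median, 0.028 with quantile normalization and 0.038 with normexp. In the mutant miR-99a became 0.28 and miR-100 0.25 with that percentile, and miR-100 0.15 with quantile normalization. In the authors' table the time ratios were 6.78 for miR-99a in WT, 6.55 for miR-99a and 6.52 for miR-100 in the mutant, where the median of all miRNAs was 6.76 for WT and 6.60 for the mutant, and limma called 5 of the 5 members. Each other alternative called 0 members. Leaving out an array left too few for genotype in the model, so time point alone was fitted, with 1 array at 1 of the time points, assumed to vary like the rest. These fits also called 0 members (0 to 0). Over all miRNAs, time point alone called 0 on 4 arrays and 13 without the WT array at ZT14, and 1 without the mutant array at ZT14. The additive fit, which called 0 of all 123, called 5 without scaling, 3 with normexp, 3 with spike-in scaling and 123 in the authors' table. That table's arrays share no scale. Elsewhere no cause was tested. No paired analysis was possible, as each condition had 1 array and no second replicate to pair by. Genotype, within which the time points pair, is in the time model.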
